A study of Arabidopsis thaliana with 20 samples.

Results

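NADP-MDH (AT5G58330), GLDH (AT3G47930) and PRXIIE (AT3G52960) are nuclear genes of Arabidopsis thaliana for 3 enzymes of redox metabolism. They were taken by name, as genes to which the platform annotation assigns a feature of their own, and each was the sole gene of 1 feature. They are 3 of the 659 genes that could be tested in this way, on an array of 3439 features. The arrays compared wild-type plants (WT) with plants titled hcf145, a mutant whose photosystem I is not properly assembled, with 10 arrays of total RNA in each group. Both groups share the ecotype Wassilevskija. The titles and descriptions of the mutant name hcf145, whereas the source names call it gun5, so the mutant is named here by its titles. The labels give no allele, tissue, age, growth condition or number of plants.

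NADP-MDH is the chloroplast malate dehydrogenase that runs on NADPH. It is the stromal enzyme of the malate valve, which turns surplus reducing power from the light reactions into malate that leaves the chloroplast, and thioredoxin, reduced by photosystem I through ferredoxin, switches it on in the light. GLDH, L-galactonolactone dehydrogenase, performs the last step of ascorbate synthesis at the inner mitochondrial membrane, passes its electrons to cytochrome c and is also needed to assemble respiratory complex I. PRXIIE is a chloroplast peroxiredoxin of type II, a thiol enzyme that reduces peroxides. The arrays measured transcript levels only, not the redox state or activity of these enzymes.

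Deposited intensities, on a linear scale, summed to between 3319 and 3640 per array, and between 120 and 248 features per array were exact zeros, none of them in the 3 genes. Adjacent array numbers (1 with 2, 3 with 4 and so on) resembled each other most within their group for 20 of 20 arrays, with a consensus correlation of 0.66, so adjacent arrays were averaged into 5 values per group. Nothing in the labels ties arrays to plants or cultures, so every p-value rests on scatter between arrays or their averages, which may be technical. Neither HCF145 nor GUN5 was the sole gene of a feature, so the mutated gene could not be checked. Of 5 markers of green tissue, 2 were tested. The antenna gene LHCB1.5 had a mean intensity of 17.7 ± 9.24 in WT and 7.40 ± 2.75 in hcf145 (SD, n = 5 averages each, limma adjusted p = 0.0826). The photosystem I gene PSAN was at 2.75 ± 0.473 and 1.34 ± 0.145 (SD, n = 5 averages each, limma adjusted p = 0.0201). None of 6 markers of seed, root and flower was tested, so the tissue could not be checked further, and in whole-tissue RNA fewer cells of a type and less RNA per cell cannot be told apart.

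On the 5 against 5 averages, NADP-MDH and GLDH were brighter and PRXIIE was dimmer in hcf145, and none of the 3 passed limma's test at an adjusted p of 0.05. That threshold was passed by 251 of the 3287 features tested, or 7.64%. At an unadjusted limma p under 0.05, 2 of the 3 genes were below the threshold (NADP-MDH and GLDH), as were 26.3% of all features. With the 20 arrays counted separately, which understates the spread, 2 of the 3 genes (NADP-MDH and GLDH) passed the adjusted threshold, against 29.3% of all features. With adjacent arrays as a random block, NADP-MDH passed, against 13.1% of all features. In the averages no gene of the 3 had groups without overlap, whereas 10.3% of the 3131 features with all 10 averages did.

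The higher mean of NADP-MDH in hcf145 was carried by 4 of the 5 hcf145 averages. In WT, the intensity was 2.05, 2.55, 1.99, 1.77 and 2.72 in averages 1 to 5. In hcf145, it was 3.95, 4.21, 4.79, 3.35 and 1.98. The first 4 hcf145 averages thus lay above every WT average, and the fifth, from arrays 9 and 10, lay within the WT range. On single arrays the intensity ran from 1.71 to 2.79 in WT (median 2.10) and from 1.67 to 5.01 in hcf145 (median 3.91). Of the 10 hcf145 arrays, 8 were above all WT arrays, array 9 was within the WT range, and array 10 was below all WT arrays.

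The mean intensity of NADP-MDH was 2.22 ± 0.402 in WT and 3.66 ± 1.07 in hcf145 (SD, n = 5 averages each), a ratio of 1.65. In quantile-normalised log2 values, hcf145 minus WT was 0.71 ± 0.28 (SE), with a 95% interval of 0.10 to 1.32 (limma adjusted p = 0.136, exact two-sided permutation p = 0.0397). A greater difference was found for 12.9% of all features, and the share with so low a permutation p was not counted. With same-numbered averages set side by side, as a description since the numbers are not shown to pair the samples, the difference was 0.95, 0.78, 1.28 and 1.0015 for numbers 1 to 4 and -0.45 for number 5. Of the 15 fits with averages left out, only those without hcf145 average 5 passed. Without it in hcf145 the difference was 0.94 ± 0.21 (SE, limma adjusted p = 0.0312), and without number 5 in both groups it was 1.003 ± 0.21 (SE, limma adjusted p = 0.0242). Leaving out the average that runs against the rise raises the difference by itself. In the other such fits the limma adjusted p ran from 0.122 to 0.356. With all averages kept, the difference was 0.68 ± 0.28 in the values as deposited (SE, limma adjusted p = 0.120). With median centring it was 0.96 ± 0.31 (SE, limma adjusted p = 0.0879). Adjacent arrays of this bright feature, above 91.7% of the features on the median WT array, differed by a median of 0.11 on the log2 scale. Averages of the same group differed by 0.34. The first value compares single arrays and the second averages of 2 arrays, which are less noisy.

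**Figure D1:**
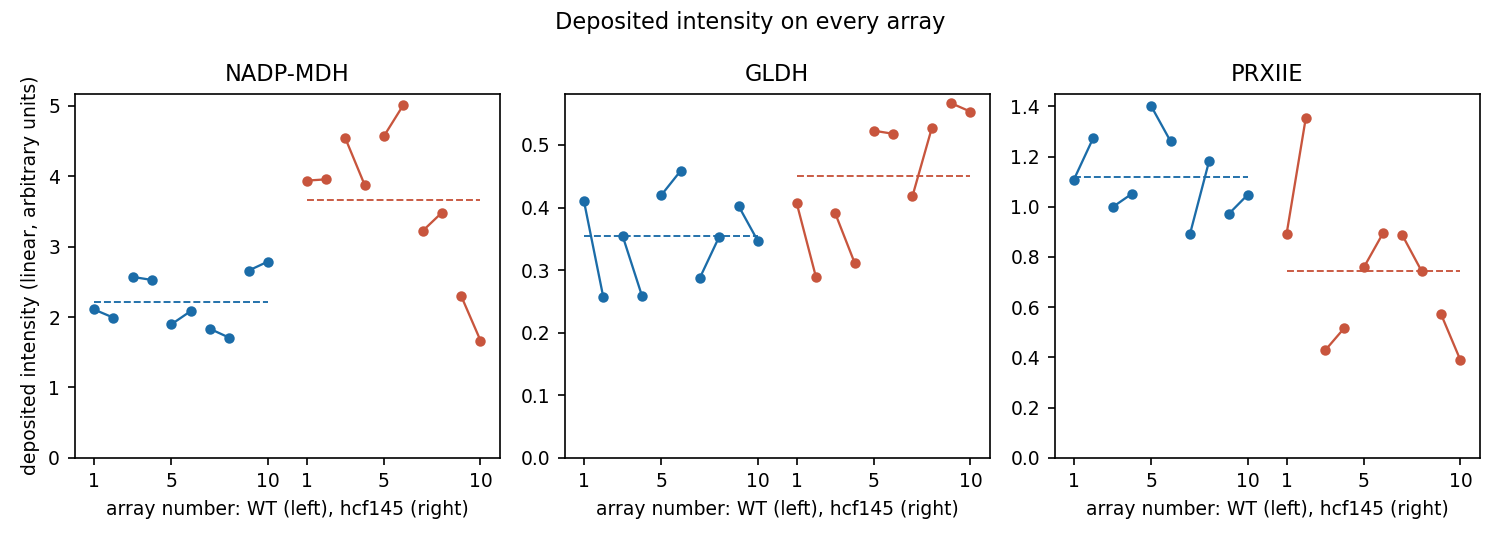
Deposited intensity (linear scale, arbitrary units, y axis from 0) of NADP-MDH, GLDH and PRXIIE on each of the 10 WT arrays (blue, left) and 10 hcf145 arrays (red, right), with lines joining adjacent arrays and dashed lines at the group means. NADP-MDH lay above every WT array on hcf145 arrays 1 to 8 and at 2.30 and 1.67 on arrays 9 and 10, and GLDH overlapped between the groups. PRXIIE was below every WT array on 8 hcf145 arrays, only narrowly on arrays 1 and 7.

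GLDH was the dimmest of the 3 features, and its mean was higher in hcf145 by an amount that depended on the scaling, as it did for NADP-MDH. Its intensity in WT was 0.334, 0.307, 0.439, 0.321 and 0.375 in averages 1 to 5. In hcf145 it was 0.349, 0.352, 0.520, 0.473 and 0.560. The groups overlapped: the first 2 hcf145 averages lay within the WT range and the other 3 above it. On single arrays GLDH ran from 0.257 to 0.459 in WT (median 0.354) and from 0.290 to 0.567 in hcf145 (median 0.468), where 5 of 10 arrays were above all WT arrays and 5 were within their range.

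The mean intensity of GLDH was 0.355 ± 0.0534 in WT and 0.451 ± 0.0968 in hcf145 (SD, n = 5 averages each), a ratio of 1.27. After quantile normalisation, hcf145 minus WT was 0.62 ± 0.23 on the log2 scale (SE), with a 95% interval of 0.11 to 1.13 (limma adjusted p = 0.122, exact two-sided permutation p = 0.0238), and 16.1% of all features had a greater difference. Same-numbered averages differed by 0.38, 0.71, 0.75, 0.80 and 0.45. With median centring, the difference of GLDH was 0.62 ± 0.25 (SE, limma adjusted p = 0.146). In the values as deposited, it was 0.34 ± 0.23 (SE, limma adjusted p = 0.343). The median feature was at -0.32 in those values and at -0.06 after quantile normalisation. On the median WT array 40.7% of the features were dimmer than GLDH, and its adjacent arrays differed by a median of 0.29 on the log2 scale, close to the 0.33 between averages of the same group.

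PRXIIE was the one gene of the 3 with a lower mean in hcf145. Its intensity in WT was 1.19, 1.03, 1.33, 1.04 and 1.01 in averages 1 to 5. In hcf145 it was 1.12, 0.473, 0.827, 0.814 and 0.480. The first hcf145 average lay within the WT range and the other 4 below it. On single arrays PRXIIE ran from 0.890 to 1.40 in WT (median 1.08) and from 0.389 to 1.35 in hcf145 (median 0.750), where 8 of 10 arrays were below all WT arrays and 2 were within their range. Arrays 1 and 7 were below only narrowly, at 0.8898 and 0.8860 against a WT minimum of 0.8899. After quantile normalisation hcf145 arrays 1, 5 and 7 lay within the WT range as well.

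The mean intensity of PRXIIE was 1.12 ± 0.139 in WT and 0.743 ± 0.273 in hcf145 (SD, n = 5 averages each), so that WT was 1.51 times as bright. In normalised values hcf145 minus WT was -0.47 ± 0.26 on the log2 scale (SE), with a 95% interval of -1.03 to 0.09 (limma adjusted p = 0.265, exact two-sided permutation p = 0.0873). A more negative difference was found for 25.5% of all features. In these values same-numbered averages differed by 0.15, -0.72, -0.50, -0.22 and -1.05. In the values as deposited the difference was -0.67 ± 0.28 (SE, limma adjusted p = 0.122, exact two-sided permutation p = 0.0317), and number 1 was at -0.11 there. The median feature was itself lower in those values, at -0.32, against -0.06 after quantile normalisation. Of the features past the adjusted threshold as deposited, only 18.3% were higher in hcf145. As for NADP-MDH and GLDH, the share of all features with so low a permutation p was not counted. The averages of PRXIIE were more spread in hcf145 (SD 0.48 on the normalised log2 scale, n = 5) than in WT (SD 0.20, n = 5), and whether the spread differed was not tested. The 2 lowest hcf145 averages, from arrays 3 and 4 and from arrays 9 and 10, stood at 4.21 and 1.98 in NADP-MDH, above and below its hcf145 mean.

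**Figure D2:**
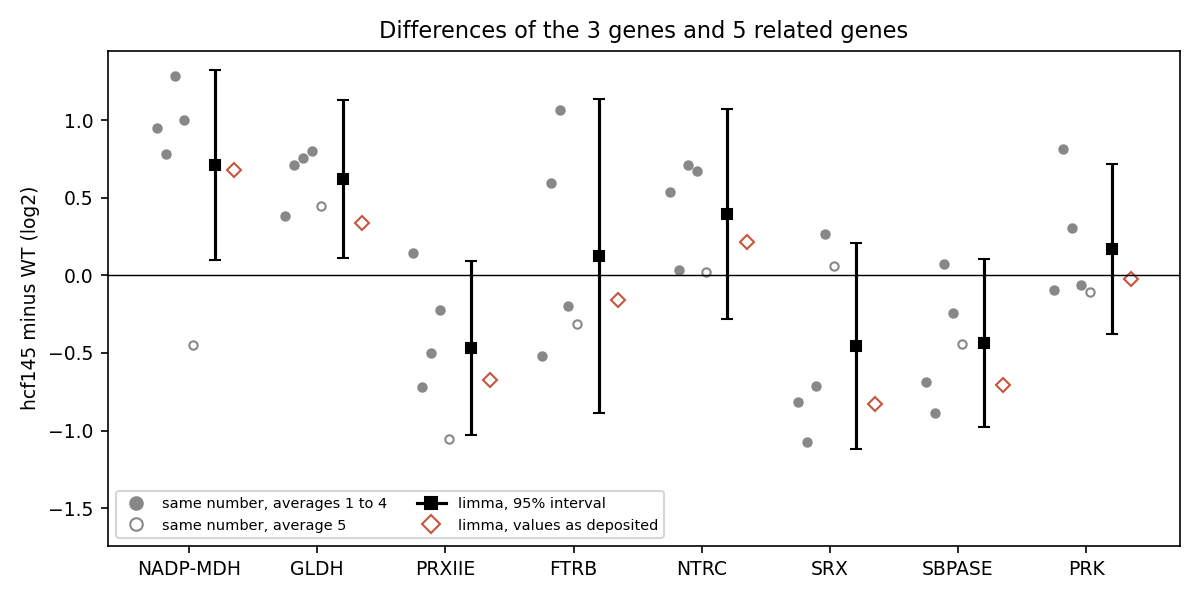
Difference between hcf145 and WT (log2) for the 3 genes and for the 5 related genes that were tested. Grey circles are same-numbered averages (number 5 open), black squares are limma differences of quantile-normalised values with 95% intervals, and red diamonds are the differences in the values as deposited. The open circle of NADP-MDH at -0.45 is its only negative one, and the intervals of NADP-MDH and GLDH alone do not include 0.

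Whether the genes differed in their response was tested by the log2 ratio of 2 genes on the same arrays, in the values as deposited. A ratio cancels a factor common to a whole array, but not a shift that varies with brightness. Of the 3 ratios, NADP-MDH over PRXIIE and GLDH over PRXIIE were higher in hcf145, and NADP-MDH over GLDH did not pass. NADP-MDH over PRXIIE was 0.79, 1.31, 0.58, 0.79 and 1.43 in the WT averages. In the hcf145 averages it was 1.85, 3.16, 2.54, 2.05 and 2.05, so the groups did not overlap. Its mean rose by 1.35 ± 0.29 (SE), a 2.55-fold change in the ratio (exact two-sided permutation p = 0.00794, the smallest that 5 against 5 can give, and 0.0238 after Benjamini-Hochberg adjustment over the 3 ratios). In average 5 of hcf145, where NADP-MDH was at its lowest, PRXIIE was low as well and the ratio stayed above all WT averages. The size of the differences depended on the scaling. With quantile-normalised values NADP-MDH over PRXIIE rose by 1.18, and NADP-MDH over GLDH differed by 0.094, against 0.34 as deposited.

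GLDH over PRXIIE ran from -1.87 to -1.43 in WT and was -1.68, -0.43, -0.66, -0.79 and 0.25 in the hcf145 averages. The first hcf145 average lay within the WT range and the other 4 above it. The mean rose by 1.01 ± 0.32 (SE), a 2.01-fold change (exact two-sided permutation p = 0.0238, adjusted p = 0.0357). NADP-MDH over GLDH had a mean of 2.65 ± 0.35 in WT and 2.99 ± 0.73 in hcf145 (SD, n = 5), a difference of 0.34 ± 0.36 (SE, exact two-sided permutation p = 0.381), which does not show that these 2 genes acted alike. Ratios without overlap were common: of all 196251 ratios of 2 features with 1 gene each, 9.99% had none, against which the 1 of 3 seen here has to be read. The genes were also chosen with earlier results of these data known. With 1 number left out of both groups the smallest possible p is 0.0286. Adjustment over 3 ratios takes it past 0.05 unless another ratio is as low, so a lost call says little for a ratio at that p. NADP-MDH over PRXIIE was at that smallest p in all 5 such fits, with rises of 1.196 to 1.53. GLDH over PRXIIE was at it only without number 1, with rises of 0.84 to 1.21 over all such fits. In the others its p was above the smallest possible and it lost its call, with a permutation adjusted p of up to 0.129.

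**Figure D3:**
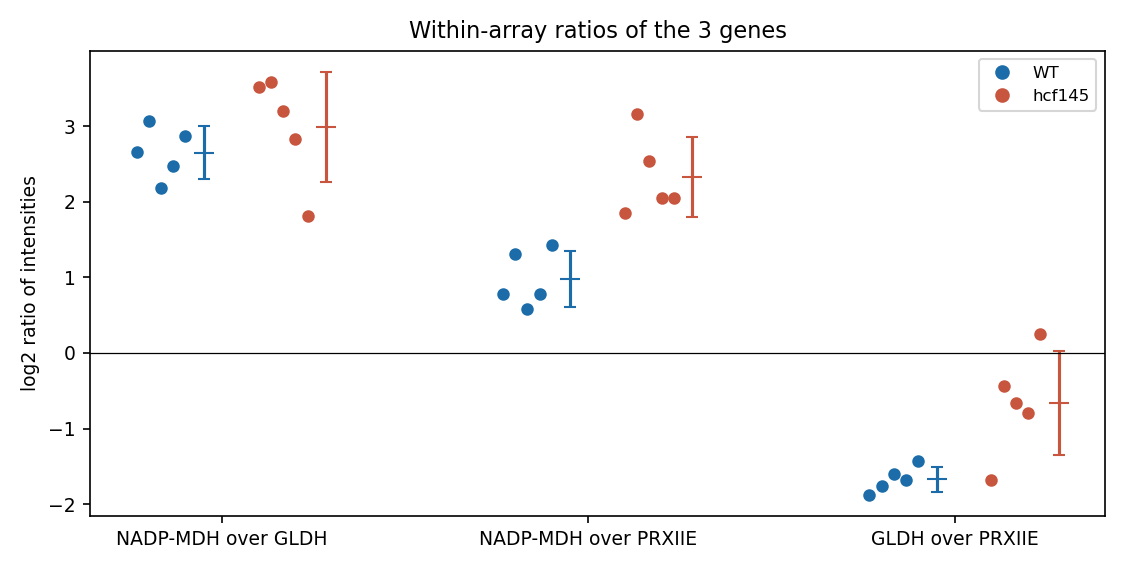
Log2 ratio of the deposited intensities of 2 genes in the 5 WT averages (blue) and 5 hcf145 averages (red), with bars at the mean ± SD. NADP-MDH over PRXIIE does not overlap between the groups (WT at most 1.43, hcf145 at least 1.85), GLDH over PRXIIE overlaps by its first hcf145 average, and NADP-MDH over GLDH overlaps, with hcf145 average 5 below all WT averages.

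Of 89 genes in 6 lists of related redox genes, 8 were tested, the 3 genes and 5 others, and none passed limma's adjusted threshold, which 7.64% of all features did. At an unadjusted limma p under 0.05 there were 2 of the 8, both among the 3 genes, a share close to the 26.3% of all features. Their median difference was 0.15 on the log2 scale, against -0.06 over all features. Besides NADP-MDH none of the other 12 genes of the malate valve and malate dehydrogenases was tested, and besides GLDH none of the other 11 genes of ascorbate synthesis. None of 29 genes of the ascorbate-glutathione cycle and scavenging enzymes was tested. A further 10 of the 89 were found only on features that the annotation gives to several genes, and these were not used.

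Among the electron donors, 2 of 17 genes of the ferredoxin-thioredoxin system were tested. NTRC (AT2G41680), a plastid thioredoxin reductase that uses NADPH, had an intensity of 0.895 ± 0.320 in WT and 1.05 ± 0.438 in hcf145 (SD, n = 5 averages each), and its difference was 0.40 ± 0.31 (SE, limma adjusted p = 0.438), or 0.20 without hcf145 average 1 and 0.21 without WT average 4. AT2G04700, listed here as the catalytic subunit FTRB of ferredoxin-thioredoxin reductase, stood at 0.851 ± 0.314 and 0.837 ± 0.518 (SD, n = 5 averages each). Its log2 difference of 0.13 ± 0.46 (SE, limma adjusted p = 0.885) turned to -0.16 in the values as deposited. It also changed sign when average 3 of WT (-0.28), average 3 of both groups (-0.11), or average 2 or 5 of hcf145 (-0.08 and -0.01) was left out. Its intensity was 0.134 on WT array 6 and 2.88 on hcf145 array 3, far from the other arrays of each group.

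The peroxiredoxin list held 11 genes, of which 2 were tested: PRXIIE, the one peroxiredoxin tested, and SRX (AT1G31170), which encodes sulfiredoxin, the enzyme that repairs overoxidised peroxiredoxins. SRX was dim, at 0.279 ± 0.0360 in WT and 0.173 ± 0.108 in hcf145 (SD, n = 5 averages each), with 1 zero, on hcf145 array 2. Its hcf145 averages 1, 2 and 3 were below the WT range, at 0.0571, 0.119 and 0.127, and averages 4 and 5 were at 0.332 and 0.230. These intensities count the zero, whereas the log2 values leave it out, so that array 1 alone (0.114) stands for average 1. The log2 difference was -0.46 ± 0.30 (SE, limma adjusted p = 0.364), and -0.83 ± 0.35 in the values as deposited (SE, limma adjusted p = 0.132). It was -0.80 with the zero set to the lowest positive value of its array, -0.90 with the first array of each adjacent pair alone, and 0.18 with the second alone, where the zero leaves 4 hcf145 values; none of these passed. The order of the averages was unlike that of PRXIIE, whose hcf145 average 1 was its highest.

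Of 7 other chloroplast enzymes that thioredoxin regulates, 2 were tested. SBPASE (AT3G55800), a phosphatase of the Calvin cycle, was at 0.701 ± 0.214 in WT and 0.432 ± 0.102 in hcf145 (SD, n = 5 averages each; log2 difference -0.44 ± 0.25 SE, limma adjusted p = 0.280), with hcf145 array 4 far below the others at 0.181. PRK (AT1G32060), the kinase that makes the acceptor of CO2, was at 0.918 ± 0.197 and 0.914 ± 0.213 (log2 difference 0.17 ± 0.25 SE, limma adjusted p = 0.691, and -0.021 in the values as deposited). NADP-MDH, SBPASE and PRK are all thioredoxin targets, and their differences had both signs. Whether they differed from one another was not tested.

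The genes most like each of the 3 were sought among 626 other features with 1 gene, by the root mean square difference of the profiles over the 10 averages, each centred on its own mean in normalised log2 values. This likeness includes the difference between the groups and describes these arrays only. Nearest to NADP-MDH were AT4G01310 (0.31), PSBY (0.34), a small subunit of photosystem II, and AT4G00170 (0.34), against a median of 0.77 over the 626. Their own differences between hcf145 and WT were 0.47, 0.28 and 0.96 on the log2 scale. That of AT4G01310 was 0.85 with the first array of each adjacent pair alone and 0.08 with the second alone. GLDH had closer neighbours: IYO (0.14), also known as MINIYO, AT4G39690 (0.19) and AT4G29890 (0.24), against a median of 0.70, with differences of 0.56, 0.65 and 0.75. Nearest to PRXIIE were AT2G28540 (0.22), AT2G35390 (0.26) and AT2G46190 (0.27), against a median of 0.67, with differences of -0.45, -0.83 and -0.40. Of all these neighbours only AT4G00170 and AT2G35390 passed the adjusted threshold (limma adjusted p = 0.0243 and 0.0469), which 7.64% of all features did.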

How the data were processed

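Transcript levels were measured in total RNA on 20 arrays, 10 WT and 10 hcf145, grouped by title. Intensity was deposited by the authors in 1 table, on a scale that the values show to be linear; background correction, scaling, the kind of array and any averaging of spots are not given in the sources used here. Column medians ran from 0.311 to 0.493. Of the 3439 features, 692 had 1 gene in the platform annotation, 870 several and 1877 none, and for 690 of these 692 a name was found in RefSeq (TAIR10.1).

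Zeros were set missing, values taken to log2, and 152 features with under 5 values in either group left out. The other 3287 were quantile normalised, and adjacent arrays were averaged. Groups were compared with limma 3.58.1 in R 4.3.3 (lmFit and eBayes, two-sided, group only) with Benjamini-Hochberg adjustment over all 3287 features at 0.05. Exact permutation tests used all 252 splits of the averages. The fits were checked on simulated data with planted changes larger than the limma differences of the 3 genes. This check does not show whether differences of their size would be called. The number of averages limits the precision. The text names the 3 genes, every tested member of the lists and the 3 nearest genes by pattern. The genes, lists and the averaging were chosen with earlier results of these data known. Same-numbered averages of the 2 groups had deviations correlated at 0.06 to 0.42, under 0.1 for 1 of 5 numbers, so numbers were not treated as pairs. Alternatives covered the unit of replication, scaling, zeros, dim features, the variance model and left-out averages.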

Additional observations from a re-analysis of the deposited data

Results flagged for a closer look

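Of 76 groups of values tested for 19 named genes, 4 were flagged, all for single arrays that stood apart from the others of their group. WT and hcf145 give fewer than 76 groups of single arrays for 19 genes, so the rate among single arrays was higher than 4 in 76. Chance alone gives about 1 in 20 groups, and adjacent arrays are not independent. None was in NADP-MDH, GLDH or PRXIIE. The feature listed as FTRB was at -3.64 (normalised log2 value) on WT array 6 (others -0.84 to 0.51) and at 1.60 on hcf145 array 3 (others -1.34 to 0.10). SBPASE stood at -2.15 on hcf145 array 4 (others -1.37 to -0.61). AT4G39690, near GLDH in pattern, stood at 0.62 on WT array 3 (others 1.03 to 1.34).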

How the results depend on the processing

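The differences of NADP-MDH, GLDH and PRXIIE kept their sign under all 30 alternatives each, and 11 of these 90 values passed the adjusted threshold. NADP-MDH passed at 0.71 with 20 arrays counted separately, with adjacent arrays as a random block and with the array number as a replicate block, and at 0.92 with array weights; leaving averages out it ran from 0.57 to 1.003. GLDH passed at 0.62 with 20 arrays counted separately and with the pair or array number as a replicate block, and at 0.73 with array weights. PRXIIE passed only with the array number as a replicate block, at -0.47, as did NTRC at 0.40. The numbers are not shown to pair the samples (8 of 10 averages correlated best with their own number, a hint from the data), so the blocked calls are not used above. The ratio rises of 1.35 (NADP-MDH over PRXIIE) and 1.01 (GLDH over PRXIIE) each lost their call in 5 of 8 alternatives. These were paired sign changes by number, a replicate block whose smallest p is 0.0625, and the fits without a number other than 1. Leaving numbers out, the rises ran from 1.196 to 1.53 and from 0.84 to 1.21. The count of features past the threshold, 251, was 962 with 20 arrays, 429 with the random block, 142 and 138 with the first or second array of each pair, 511 and 1246 with the pair or array number as a replicate block, 517 with array weights, and 24 to 317 with averages left out. As deposited, the features past the threshold were higher in hcf145 for 18.3% and with median centring 61.3%, against 48.2%. FTRB changed sign with first arrays only (-0.082) and as deposited (-0.16), and ran from -0.28 to 0.37 with averages left out. PRK changed sign under the same first 2 settings (-0.044 and -0.021), and SRX with second arrays only (0.18). The causes were not tested.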
